A study of Arabidopsis thaliana with 10 samples.

Results

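MDN1 (AT1G67120), SWEETIE (AT1G67140) and AT1G48090 are 3 of the longest protein-coding genes of *Arabidopsis thaliana*, and their gene bodies carry some of the most connected anchors of the H3K4me1 loop list. The 3 genes were chosen on measured values: AT1G48090 and MDN1 for their H3K4me1 loop counts, and SWEETIE as the next long gene beside MDN1. Their anchors rank 1, 3 and 20 by loops among 6485 H3K4me1 anchors, with ATM (115 loops) and AT4G17140 (85) at ranks 2 and 4. A loop belonged to a gene when 1 of its anchors overlapped the locus, from 1 kb upstream of the transcription start site (TSS) to the gene end. By this rule 257 of the 59276 deposited loops were found at 3 of the 27444 annotated protein-coding genes. Loop counts at these loci and their ranks are therefore descriptions, and no test was run on them.

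The data are lists of chromatin loops from ChIA-PET, an assay in which cross-linked chromatin is pulled down with an antibody, nearby DNA ends are ligated, and the joined ends are sequenced as paired-end tags (PETs). The material was the shoots of 2-week-old Col-0 wild-type seedlings, without any treatment that differed between samples, and 5 antibodies were used with 2 labelled replicates each (10 samples). The targets were H3K4me1, a mark of the bodies of transcribed genes; H3K4me3, a mark of active gene starts; RNA polymerase II (RNAPII); H3K27me3, the Polycomb mark; and H3K9me2, the heterochromatin mark. Each antibody has 1 pooled list, and the lists carry 4 library numbers for H3K4me1 and H3K4me3, 3 for H3K27me3 and 2 for RNAPII and H3K9me2, whose relation to the labelled replicates is not stated in the sources used here. They held 6310 (H3K27me3) to 14465 (H3K4me3) loops, and the H3K4me1 list holds 13355 loops and 150731 PETs. The median anchor carried between 444 (H3K9me2) and 4211 (H3K4me3) tags, and the part of depth in differences between lists was not tested. Whole shoots hold many cell types, and more cells with a contact cannot be told apart from more contacts per cell.

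Midasin, the protein of MDN1, is a very large AAA-type ATPase that in yeast pulls assembly factors off the precursor of the large ribosomal subunit in the nucleolus and nucleoplasm. SWEETIE is a large plant protein whose loss disturbs sugar metabolism, including trehalose and starch, and brings early senescence. AT1G48090 is annotated as a calcium-dependent lipid-binding family protein and belongs to the VPS13-like proteins, which in yeast and animals form long grooves that carry lipids between membranes. All 3 lie on the minus strand of chromosome 1. MDN1 spans chr1:25069428-25095638, a length of 26.2 kb with 75 exons in its longest transcript and 5393 encoded residues. Its gene model is marked as partial in the annotation, unlike those of SWEETIE and AT1G48090, and distances from its TSS rest on that model. SWEETIE lies at chr1:25100848-25117531, 16.7 kb long with 48 exons and 2221 residues. AT1G48090 lies at chr1:17732010-17758508, 26.5 kb long with 66 exons and 4173 residues. By gene length they rank 3, 16 and 2 among protein-coding genes, whose median length is 2078 bp.

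The starts of the genes are shown first, because it is there that the lists differ between the members. Each stretch runs from 250 bases before to 50 bases after the TSS on the gene's own strand, read from the RefSeq TAIR10.1 genome. Capitals mark site II elements (TGGGCC or TGGGCT), known from promoters of ribosomal protein and cell division genes, and the telo-box (AAACCCTA), found in promoters of translation genes. Both strands were searched, and the motifs did not overlap each other. The stretches are chr1:25095589-25095888 for MDN1, chr1:25117482-25117781 for SWEETIE and chr1:17758459-17758758 for AT1G48090, all on the minus strand.
MDN1: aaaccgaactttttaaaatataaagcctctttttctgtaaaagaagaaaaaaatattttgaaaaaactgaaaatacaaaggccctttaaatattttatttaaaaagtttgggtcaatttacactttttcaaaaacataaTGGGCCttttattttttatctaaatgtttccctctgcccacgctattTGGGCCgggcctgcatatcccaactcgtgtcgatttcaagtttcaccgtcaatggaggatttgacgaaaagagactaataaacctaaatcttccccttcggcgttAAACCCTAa
SWEETIE: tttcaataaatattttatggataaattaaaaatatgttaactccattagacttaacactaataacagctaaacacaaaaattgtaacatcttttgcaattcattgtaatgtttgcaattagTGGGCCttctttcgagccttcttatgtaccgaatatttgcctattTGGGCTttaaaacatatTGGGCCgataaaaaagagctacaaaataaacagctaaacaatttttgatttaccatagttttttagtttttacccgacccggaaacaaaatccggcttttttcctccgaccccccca
AT1G48090: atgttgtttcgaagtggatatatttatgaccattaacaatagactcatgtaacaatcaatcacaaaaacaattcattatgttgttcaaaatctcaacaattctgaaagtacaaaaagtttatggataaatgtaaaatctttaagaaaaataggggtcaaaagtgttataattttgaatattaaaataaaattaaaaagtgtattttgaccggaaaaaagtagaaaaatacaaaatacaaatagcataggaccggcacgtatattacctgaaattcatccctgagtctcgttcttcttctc

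The MDN1 stretch holds 2 site II matches, whose first bases lie 111 and 64 bases before the TSS, and 1 telo-box match, which begins at base 42 of the transcript. SWEETIE holds 3 site II matches, at 129, 84 and 67 bases before the TSS, and no telo-box match. AT1G48090 holds neither motif. Over the same window, 21.7% of 27443 protein-coding promoters had a site II match and 6.22% a telo-box match. These matches describe the letters of the window and show no binding. The GC content of the windows was 33.7% (MDN1), 32.3% (SWEETIE) and 27.7% (AT1G48090), against a median of 32.0% over all promoters.

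H3K4me1 loops were plentiful at all 3 loci, with 121 at AT1G48090, 87 at MDN1 and 46 at SWEETIE. Because 1 loop joins MDN1 and SWEETIE, the total was 253 loops and 4183 PETs. The other lists gave almost nothing: 1 H3K4me3 loop at AT1G48090, 3 H3K27me3 loops at SWEETIE, and none in the RNAPII and H3K9me2 lists. The lists hold only loops past a PET minimum, so a count of 0 says that no loop was listed. Across the genome 33.3% of protein-coding genes had an H3K4me1 loop at the locus, and 96.7% of the 122 genes of 10 kb or more did. The corresponding background for a gene to have any loop was 43.5% (long genes 54.1%) for H3K4me3, 27.1% (28.7%) for RNAPII, 19.0% (7.38%) for H3K27me3 and 1.42% (0.820%) for H3K9me2. The absence of RNAPII loops at the 3 genes is thus shared with most long genes.

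By PETs in H3K4me1 loops the loci held 1956 (AT1G48090), 1617 (MDN1) and 902 (SWEETIE), which rank 3, 4 and 10 among all protein-coding genes. By number of loops they rank 1, 4 and 37, and 1, 3 and 19 among genes of 10 kb or more, whose H3K4me1 loop count ran from 0 to 121 with a median of 28.0. The gene that came closest to AT1G48090 among long genes was ATM, the DNA damage kinase, with 117 loops, and the gene just below MDN1 was AT4G17140 with 86. TOR, the nutrient-sensing kinase, ILA, a HEAT repeat protein of immunity and translation control, and AT5G24740, another VPS13-like gene, had 69 each.

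**Figure D1:**
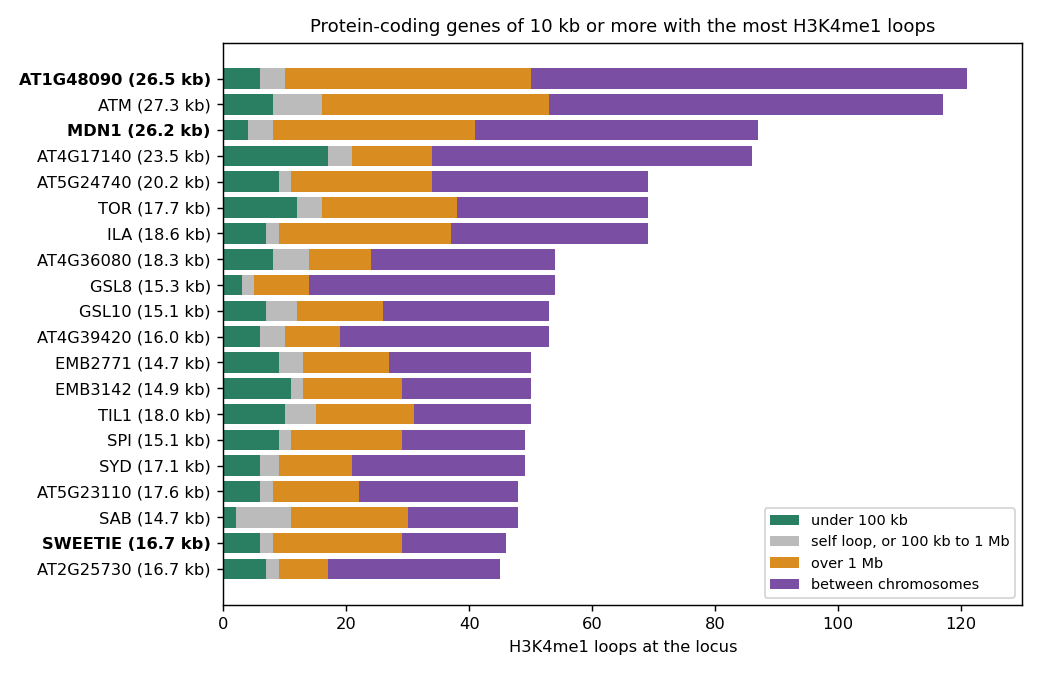
H3K4me1 loops at the locus (horizontal axis, number of loops) for the 20 protein-coding genes of 10 kb or more with the most such loops, with gene length in brackets and the 3 described genes in bold. Colours split each bar by loop class, and in every bar the loops between chromosomes together with those over 1 Mb make up most of the length.

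Each gene had a single H3K4me1 anchor, and it filled nearly the whole transcribed unit without reaching the TSS. The MDN1 anchor was 25.4 kb wide (chr1:25069773-25095146), covered 96.8% of the gene, touched 73 of 75 exons, and stopped 492 bp inside the TSS and 345 bp short of the gene end. The SWEETIE anchor was 15.9 kb wide (chr1:25101036-25116906), covered 95.1% of the gene, touched 47 of 48 exons, and began 625 bp inside the TSS. The AT1G48090 anchor was 25.2 kb wide (chr1:17732450-17757648), also covered 95.1%, touched 61 of 66 exons, and began 860 bp inside the TSS. So the bare stretch at the start was longer than the one at the gene end, which measured 188 bp at SWEETIE and 440 bp at AT1G48090. Exons made up 62.5% of the covered bases at MDN1, 40.8% at SWEETIE and 49.3% at AT1G48090.

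**Figure D2:**
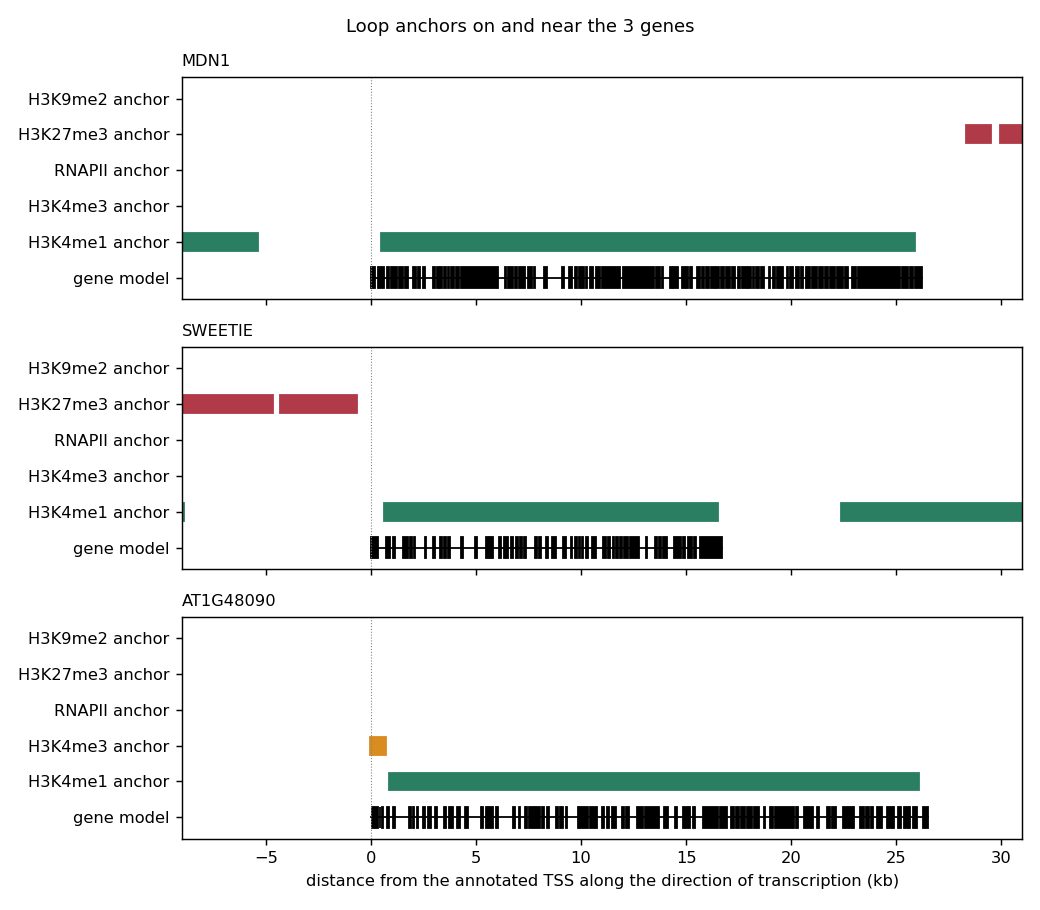
Loop anchors of the 5 lists on and near the 3 genes, by distance from the annotated TSS along the direction of transcription (kb); black boxes are exons of the longest transcript, and coloured bars are anchors that carry a listed loop. The H3K4me1 anchors begin 492, 625 and 860 bp inside MDN1, SWEETIE and AT1G48090, and an H3K4me3 anchor covers a TSS at AT1G48090 but not at the other two.

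AT1G48090 was the member with an H3K4me3 anchor (chr1:17757796-17758558, 763 bp, 2697 tags), which covered the TSS and reached 712 bp into the gene. Its 1 loop, of 6 PETs over 11.2 kb (FDR 5.71e-10, as the authors' caller gave it), led to AT1G48100, a pectin lyase-like gene upstream. Within chromosomes, 6 PETs are the minimum of the H3K4me3 list. The H3K4me3 and H3K4me1 anchors did not touch. The bases between them are printed here because they hold the border of the 2 marks' anchors within the gene (chr1:17757649-17757795, minus strand, capitals for exon bases).
AT1G48090 gap: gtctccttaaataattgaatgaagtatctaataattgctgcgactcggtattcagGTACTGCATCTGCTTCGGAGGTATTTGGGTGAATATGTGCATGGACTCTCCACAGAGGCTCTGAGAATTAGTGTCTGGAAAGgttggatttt
The 82 capital bases are exon 4 of the longest transcript, all of it coding, so the border fell around an early coding exon. In the other 2 genes no H3K4me3 anchor with a listed loop was near the start. The closest to the SWEETIE TSS was 14967 bp away and the closest to the MDN1 TSS 36860 bp away. Peaks without a listed loop are not in the lists, so whether these starts carry H3K4me3 cannot be judged here. The nearest RNAPII anchor lay 10603 bp from the TSS of AT1G48090, at the neighbouring ECT7 (an m6A reader) and AT1G48100, 33225 bp from that of SWEETIE and 46168 bp from that of MDN1.

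The anchors were wide and rich in tags. Their tags numbered 59527 (AT1G48090), 49773 (MDN1) and 35363 (SWEETIE), against a median of 4059 over 6485 H3K4me1 anchors and 22818 over the 101 anchors of 10 kb or more. Across all anchors, loop number followed width (Spearman rho 0.74) and tags (rho 0.76), and width and tags were nearly the same ranking (rho 0.93). These correlations are across anchors of 1 pooled list and carry no test. Per 10000 tags, AT1G48090 had 20.2 loops to other anchors, MDN1 17.3 and SWEETIE 12.7. The anchors of 10 kb or more had a median of 12.5 with quartiles of 10.2 and 15.3 and a highest value of 20.7, and the whole list a median of 5.90. Loops per tag of SWEETIE were thus at the middle of the wide anchors, and those of MDN1 and AT1G48090 above their upper quartile. AT1G48090 and MDN1 were chosen on their loop counts, which enter this ratio. Among the 15 anchors with the most loops it ran from 14.3 (AT4G36080) to 20.2 (AT1G48090), with AT4G17140 at 17.3 like MDN1. Per kb of anchor the counts were 4.76, 3.39 and 2.84, against a median of 2.51 for wide anchors.

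**Figure D3:**
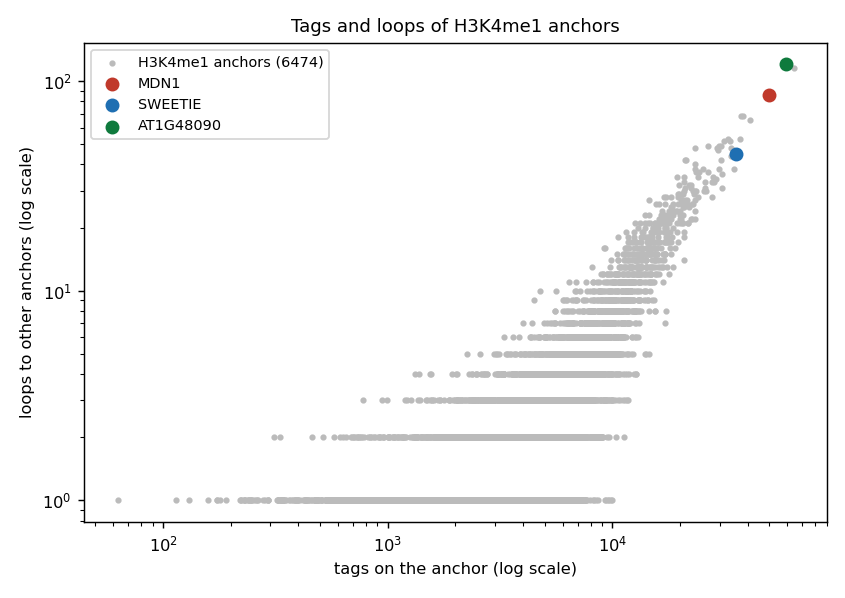
Loops to other anchors against tags for the 6474 H3K4me1 anchors with at least 1 such loop (both axes log scale), with the anchors of the 3 genes as large coloured points. The 3 anchors lie at the upper end of the same cloud, at 35363 to 59527 tags and 45 to 120 loops.

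Each anchor also carried a loop with itself, meaning PETs whose both ends fell within the anchor. These self loops held 522 PETs at AT1G48090, 485 at MDN1 and 189 at SWEETIE, and rank 2, 4 and 14 in the list. They made up 26.7%, 30.0% and 21.0% of the PETs of each locus. Over the 1094 anchors with a self loop their PETs rose with tags (rho 0.79, no test).

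The loops to other anchors went mostly far away. Of the 253 loops, 134 joined another chromosome (53.0%, exact 95% interval 46.6 to 59.2), 94 spanned over 1 Mb on chromosome 1 (37.2%, 31.2 to 43.4), 7 spanned 100 kb to 1 Mb and 15 spanned less than 100 kb (5.93%, 3.36 to 9.59). In the 13102 remaining H3K4me1 loops the shares were 20.7% between chromosomes, 20.9% over 1 Mb and 46.7% under 100 kb. The intervals cover counting error only, and loops of 1 anchor are not independent. The interchromosomal share was 58.7% at AT1G48090 (49.4 to 67.6), 52.9% at MDN1 (41.9 to 63.7) and 37.0% at SWEETIE (23.2 to 52.5). The other 8 long genes among the 10 with the most H3K4me1 loops had shares of 44.9% to 74.1%, a range that held AT1G48090 and MDN1. Long genes with about as many loops as SWEETIE differed widely. SAB had 37.5% of 48 loops and TIL1, a DNA polymerase epsilon gene, 38.0% of 50. SYD had 57.1% of 49 and AT2G25730 62.2% of 45. The share of SWEETIE was the lowest among the 20 long genes with the most H3K4me1 loops. No loop other than the self loops stayed inside a locus.

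Distant loops had few PETs each, here as in the whole list. The interchromosomal loops had 8 to 28 PETs with a median of 10.0, where 8 was the minimum of the list, and a median FDR of 0.034. None of them and none of the loops over 1 Mb had an FDR below 0.001, whereas 8 of the 15 loops under 100 kb (53.3%) and the 3 self loops did. In the rest of the list 0.552% of interchromosomal loops, 1.24% of those over 1 Mb and 80.3% of those under 100 kb had such an FDR. When PETs were divided by the product of both anchors' tags (times 100000000), the interchromosomal loops of the 3 loci had a median of 4.32, and the rest of the list 4.59. Over 1 Mb the medians were 4.96 and 5.82. Under 100 kb they were 8.24 and 31.8, but the spans differ: 2 of the 15 local loops of the 3 loci were shorter than 20 kb, against 4940 of the 6129 in the whole list. Between 20 and 100 kb the median was 7.73 over the 13 loops of the 3 loci and 9.27 over 1176 loops elsewhere, whose quartiles were 6.53 and 14.6. This ratio has a floor set by the PET minimum, which is lower for anchors with many tags.

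**Figure D4:**
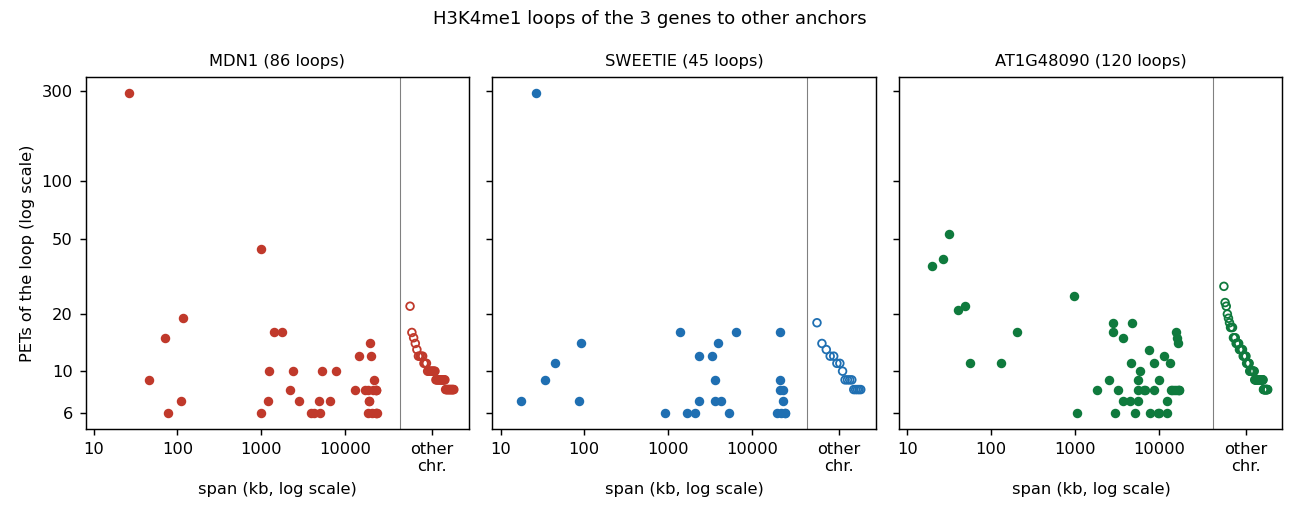
PETs (log scale) against span (kb, log scale) for the H3K4me1 loops of the 3 genes to other anchors, with loops to other chromosomes as open circles at the right of each panel, ordered by PETs. The MDN1 to SWEETIE loop with 292 PETs stands far above the others, and most loops over 1 Mb or between chromosomes have fewer than 20 PETs.

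The loop between MDN1 and SWEETIE had 292 PETs (FDR 3.96e-193), the most of the 12261 H3K4me1 loops that join different anchors. The loop with the next highest count, between AT3G11960 and AT3G11964, had 190. The centres of the 2 anchors were 26.5 kb apart and their facing edges 5889 bp. The small F-box gene AT1G67130 lies in this gap, 222 bp from the end of SWEETIE, and the SWEETIE anchor reaches into its upstream 1 kb. Both anchors were rich in tags, and per product of tags the loop had a value of 16.6. Among 719 loops spanning 20 to 35 kb it ranked 1 by PETs, where the median was 8.00 and the next highest 108, but 191 by this ratio, where the median was 11.7 and the upper quartile 17.3. Thus the PET count of the pair stood apart. Its rank by the ratio was taken against loops whose anchors mostly had fewer tags. The PET minimum sets a higher floor of the ratio for such loops, so this rank cannot place the pair. Only 3 of those 719 loops had at least 20000 tags on both anchors.

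**Figure D5:**
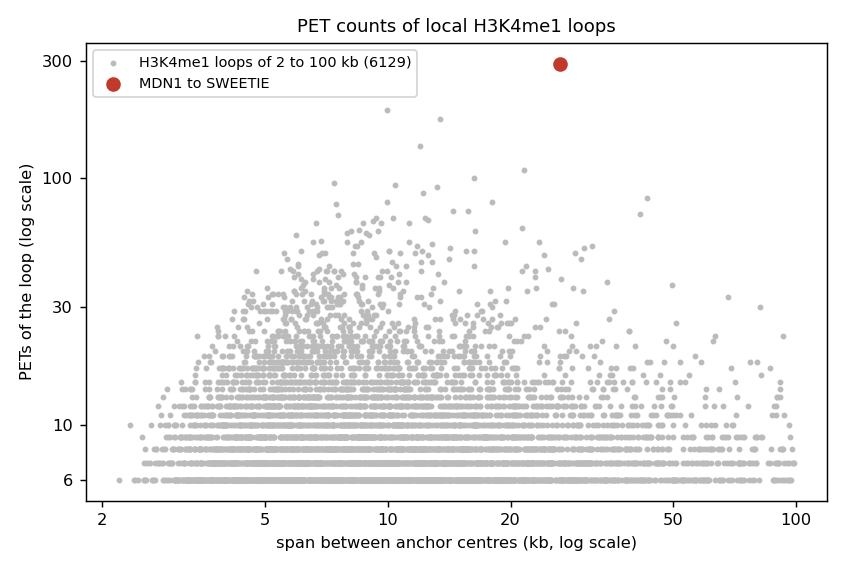
PETs (log scale) against span between anchor centres (kb, log scale) for 6129 H3K4me1 loops of 2 to 100 kb, with the MDN1 to SWEETIE loop in red. It has 292 PETs at 26.5 kb, above all other points.

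H3K27me3 anchors lay on both sides of this pair. An H3K27me3 anchor of 3.67 kb (chr1:25118203-25121876, 1436 tags) ended 672 bp upstream of the SWEETIE TSS and overlapped 329 bp of the 1 kb upstream stretch, so its 3 loops were counted at SWEETIE although it does not touch the gene. Its main loop joined the adjacent anchor at AT1G67150, a DUF247 gene (41 PETs over 4.70 kb, FDR 1.23e-63). The others led to TCP1, a transcription factor gene of the TCP family (6 PETs over 49.9 kb, FDR 0.0396), and to an anchor at MLP34 (7 PETs over 1595 kb, FDR 0.00386). On the far side, H3K27me3 anchors began 28.3 kb downstream of the MDN1 TSS, beyond the gene end. There lie CYP735A2, a cytokinin hydroxylase gene with 9 H3K27me3 loops, and LBD40, a lateral organ boundary gene with 5. Only 2 loops of up to 200 kb spanned both genes, and both were H3K27me3 loops. CYP735A2 was joined to AT1G67150 over 62.6 kb (8 PETs, FDR 0.00352), and LBD40 to AT1G67150 over 69.5 kb (5 PETs, FDR 0.0407). The 5 PETs of the latter are the minimum of the H3K27me3 list. No loop of up to 200 kb spanned AT1G48090 in any list.

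Local partners of MDN1 other than SWEETIE were few. AT1G67020 (uncharacterized) had 15 PETs at 71.1 kb (FDR 2.12e-05), AT1G67170 had 9 at 46.0 kb (FDR 0.00364) and AT1G67000 had 6 at 76.7 kb (FDR 0.0414). AT1G67310, annotated as a calmodulin-binding transcription activator, had 19 PETs at 118 kb (FDR 0.00287). SWEETIE had loops to the same AT1G67310 anchor (14 PETs, 91.3 kb, FDR 0.0102), to LINC1, a nuclear lamina-like gene (11 PETs, 44.6 kb, FDR 0.0275), and to AT1G67160 (7 PETs, 17.6 kb, FDR 7.48e-08). AT1G48090 had several local loops with over 20 PETs. On its upstream side it met AT1G48120 (53 PETs, 31.7 kb, FDR 4.7e-21), ECT7 (39 PETs, 26.5 kb, FDR 1.8e-22), AT1G48150, annotated as a MADS-box gene (21 PETs, 40.3 kb), and AT1G48180 (22 PETs, 48.1 kb). On the downstream side it met KU80, which encodes a DNA end-joining protein (36 PETs, 19.7 kb, FDR 3.69e-19).

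Among the distant partners of MDN1, ILA had the most PETs, 44 over 1009 kb (FDR 0.0275), and ILA itself is among the 10 long genes with the most H3K4me1 loops. HAC5, a histone acetyltransferase gene on chromosome 3, followed with 22. AT1G63810, annotated as a nucleolar protein, AT1G71240 and the EMB2369 anchor on chromosome 4 had 16 each, and AT3G22180, a DHHC-type zinc finger gene on chromosome 3, had 15. For SWEETIE the distant partners with the most PETs were AT5G20840, a phosphoinositide phosphatase family gene on chromosome 5 (18 PETs), then UPL2, a HECT ubiquitin ligase gene, AGD4, and an anchor of 6 genes led by CYP705A25 with 16 each. MEI1, a gene of meiosis, and SEC, which encodes an O-linked GlcNAc transferase, had 14 each, and DDB1B, a damaged DNA binding protein gene, had 13. The loop to AGD4 spanned 21489 kb. For AT1G48090 they were CEF, a Sec24-like gene on chromosome 3 (28 PETs), HIT1, which encodes the VPS53 subunit of a tethering complex at the Golgi (25 PETs, 967 kb), AT5G20840 (23 PETs), and AT3G52250, a homeodomain-like gene on chromosome 3 (22 PETs). These loops had FDR values of 0.0213 to 0.0496, close to the limit of the list.

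Each pair of the 3 genes shared 1 partner. MDN1 and SWEETIE had 1 partner anchor in common, AT1G67310, which is 1.16% of the 86 partners of MDN1 and 2.22% of the 45 of SWEETIE. MDN1 and AT1G48090 shared the anchor of TIF3H1, a translation initiation factor gene, with 8 PETs from each. SWEETIE and AT1G48090 shared AT5G20840, with 18 and 23. Among the 20 anchors of 10 kb or more with at least 45 partners, the 3 members included, 107 of 190 pairs shared no partner, 68 shared 1 and 15 shared more. No anchor was joined to all 3, and neither MDN1 nor SWEETIE was joined to AT1G48090. Partner sets were also compared over 1424 H3K4me1 anchors with at least 5 partners. The highest Jaccard index was 0.022 for MDN1 (AT1G71300, AT3G56160 and AT3G51620), 0.039 for SWEETIE (AT1G67310, then AT1G76740 and AT1G05910 at 0.038) and 0.024 for AT1G48090 (AT1G48180, then AT1G48120 and ILA). An anchor with few partners cannot reach a high index against a set this large, so low values were partly set by size. AT1G71300 shared 2 of its 5 partners with MDN1, and AT1G48180 shared 3 of its 9 with AT1G48090.

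Few partners were themselves giant genes, and few anchors of the whole list lay on one. The gene on the partner anchor was 10 kb or longer for 2 of 86 partners of MDN1 (SWEETIE and ILA). It was so for 2 of 45 of SWEETIE (MDN1 and UPL2) and 0 of 120 of AT1G48090. The MDN1 to SWEETIE loop enters these counts from both ends. Of all H3K4me1 anchors with a loop to another anchor, 1.87% lay on such a gene. This value is inside the exact 95% intervals of MDN1 (0.283 to 8.15), SWEETIE (0.543 to 15.1) and AT1G48090 (0 to 3.03). It counts each anchor once, whatever its number of loops, so it is not the share to expect among partners. Of the 5050 possible pairs among the 101 anchors of 10 kb or more, 61 were joined (1.21%). The share over all pairs of the list's 6474 anchors, joined by 12261 loops, was not computed. The 1.21% therefore does not show that wide anchors seldom join each other. The median partner carried 3676 (MDN1), 5219 (SWEETIE) and 3896 (AT1G48090) tags, against 4055 in the list. The SWEETIE median was thus above the list value, and those of MDN1 and AT1G48090 were somewhat below it. For 23.3% (MDN1), 20.0% (SWEETIE) and 33.3% (AT1G48090) of the partners, the loop to the giant gene was their sole loop to another anchor. Of all anchors 41.9% had a single loop, a value inside the exact 95% interval of AT1G48090 (upper bound 42.5) and outside those of MDN1 (14.8 to 33.6) and SWEETIE (9.58 to 34.6). An anchor with many loops is more often met as a partner, so these shares are not on the same footing. Partner anchors overlapped an H3K4me3 anchor in 43.0%, 53.3% and 39.2% of cases against 40.1% for the list, with all 3 intervals reaching across the list value. For RNAPII the shares were 12.8%, 15.6% and 13.3% against 15.8%. No H3K4me1 anchor of the list, partner or not, overlapped an H3K9me2 anchor.

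The partners were spread over the genome. MDN1 had 40 partners on chromosome 1, 7 on chromosome 2, 18 on chromosome 3, 7 on chromosome 4 and 14 on chromosome 5. AT1G48090 had 49, 16, 23, 17 and 15. SWEETIE had 28 on chromosome 1 and 8, 3 and 6 on chromosomes 3, 4 and 5, with none on chromosome 2. Loops over 1 Mb on chromosome 1 crossed to the other arm about as often as not: 18 of 33 for MDN1, 9 of 21 for SWEETIE and 18 of 40 for AT1G48090, with the arms divided at the point of lowest gene density, 14.8 Mb. The longest spanned 24664 kb, from SWEETIE.

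Of 12 large subunit assembly genes, the functional neighbours of midasin, 9 had an H3K4me1 loop (33.3% of all protein-coding genes did), with a median of 2 and a highest count of 18 at MTR4, an RNA helicase of the exosome. In the other lists 7 had an H3K4me3 loop (43.5% of all genes), 4 an RNAPII loop (27.1%) and 1 an H3K27me3 loop (19.0%). EDA25, a nucleolar gene needed in the female gametophyte, had 3 H3K4me1 but 47 RNAPII loops. Of 13 trehalose and SnRK1 genes, related to SWEETIE through sugar metabolism, 6 had an H3K4me1 loop (33.3% of all genes), with a median of 0, led by TPS1, the main trehalose-6-phosphate synthase gene, with 6. Of the 13, 7 had an RNAPII loop (27.1% of all genes), among them TPS7 with 41 and TPS8 with 23, both class II trehalose phosphate synthase genes, and 5 had an H3K4me3 loop (43.5%). Over all protein-coding genes the median H3K4me1 count was 0, and 2 over genes with any.

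All 6 genes listed as bridge-like lipid transfer proteins, the relatives of AT1G48090, had H3K4me1 loops, with a median of 38.5. Among genes of 10 kb or more, 96.7% had such a loop, with a median of 28.0, so having one is usual for genes of this length. AT4G17140, annotated as a pleckstrin homology domain protein, had 86, AT5G24740 had 69, SAB, a gene of cell expansion, had 48, AT3G50380, annotated as vacuolar protein sorting-associated, had 29, ATG2, an autophagy gene, had 27, and AT5G49680 had 15. None had an RNAPII loop (28.7% of genes of 10 kb or more did), 2 had an H3K4me3 loop (54.1%) and 2 an H3K27me3 loop (7.38%). ATG2, at 9.23 kb, is the 1 gene of the list under 10 kb. The genes are long, with a median of 14512 bp against 3228 bp for the assembly genes and 3657 bp for the trehalose and SnRK1 genes, and the part of length in this difference was not tested.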

How the data were processed

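As given by labels and methods, shoots were cross-linked with EGS and formaldehyde, and the authors ran ChIA-PET Tool V3 with ChIP-seq peaks as given anchors, pooled the replicates of each antibody, mapped to TAIR10, and retained loops under an FDR of 0.05 that passed a depth-dependent PET minimum (6 within and 8 between chromosomes for H3K4me1). The deposited values are PET counts per loop, tag counts per anchor, p-values with their FDR, and the −log10 of both, capped at 1000. ChIP-seq reads for the anchor peaks were mapped with BWA-mem at default settings, per the methods. The mapping settings within ChIA-PET Tool were not stated in the sources read.

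Anchors were set against the RefSeq TAIR10.1 annotation with Python 3.11.15, pandas 2.3.3 and SciPy 1.17.1, and an overlap of 1 bp sufficed. All nuclear anchors lay within the reference chromosomes, and 5 loops to the mitochondrial sequence were omitted. A partner is named by the gene locus that covers most of its anchor. The loci and the gene lists were chosen with earlier results of these data known. The lists hold no value per replicate, so no test was run. Shares have exact Clopper-Pearson 95% intervals, which cover counting error only. Gene counting was tested on simulated data. Genes named were taken from the top 10 partners by PETs, shared partners, neighbours, list members, long genes with the most loops, and the 3 nearest by Jaccard index. Spans were split at 100 kb after the values were seen. With the limit at 20 kb, as first planned, 2 of the 253 loops were shorter and 20 spanned 20 kb to 1 Mb. Symbols follow RefSeq, except MDN1.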

Additional observations from a re-analysis of the deposited data

How the results depend on the processing

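With loops of FDR below 0.001, 11 H3K4me1 loops were left at the 3 loci (3 at AT1G67120, 3 at AT1G67140 and 6 at AT1G48090) and 1 H3K27me3 loop, the interchromosomal share and the share over 1 Mb were 0%, and 12.5% (1 of 8) of partners lay on a gene of 10 kb or more. With 10 PETs or more in every list, 114 H3K4me1 loops were left (34, 18 and 63), 1 H3K27me3 and 0 H3K4me3 loops, an interchromosomal share of 59.6%, and 63.0% over 1 Mb among loops within chromosome 1 (79.0% as reported). Without the 1 kb upstream, or with the anchor midpoint inside the locus, the H3K27me3 count was 0. The other 10 of 11 results kept their value in both cases, and leaving out self loops moved none beyond its limit. The distant loops thus depend on the FDR limit of the lists. No paired analysis was possible because the lists pool the replicates, which also leaves no replicate to omit.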
